A study of Homo sapiens with 18 samples.

Results

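Expression of 10 genes of selective autophagy was followed across 6 groups of human fibroblast libraries: the cargo receptors SQSTM1 (p62), NBR1, OPTN, CALCOCO2 (NDP52) and TAX1BP1, the ubiquitin-like genes MAP1LC3B, GABARAP, GABARAPL1 and GABARAPL2, and WIPI1. They were chosen by symbol, and all 10 were found among the 28266 genes of the count table. All 10 also passed the filter on low counts, which left 14341 genes to be tested. In autophagy a membrane grows around cytoplasmic material, closes to form an autophagosome and fuses with a lysosome, where the content is degraded. Proteins of the LC3 and GABARAP families are coupled to a lipid of that membrane, and cargo receptors bind them on one side and ubiquitin-marked cargo on the other, so that the receptors are themselves degraded with the cargo. WIPI1 binds a phosphoinositide lipid at the site where the membrane forms.

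The cells were IMR90 ER:RAS, human lung fibroblasts (genotype label WT) given by retrovirus an oestrogen receptor fusion of the RAS oncoprotein that 4-hydroxytamoxifen (4OHT) switches on, and all 6 groups carried that fusion. Cells received 4OHT at 100 nM, which drives oncogene-induced senescence, or its solvent DMSO, and were cultured for 7 days. They were then given DMSO, IMP1088 at 300 nM or DDD86481 at 1.5 µM for 3 days and collected on day 10. IMP1088 and DDD86481 inhibit N-myristoyltransferase, the enzyme that attaches the fatty acid myristate to protein N termini, and the count table gives DDD86481 under its other name, PCLX001. Cells without 4OHT are called control cells below and cells with it senescent cells, which gives control DMSO, control IMP1088, control DDD86481, senescent DMSO, senescent IMP1088 and senescent DDD86481, with 3 libraries each. The labels do not say whether replicates were separate cultures, while the supplement of the study describes replicates of these treatments as independent experiments, and the p-values measure the spread between these libraries.

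The 18 libraries held between 16143716 and 23189950 counts. Levels are counts per 1000000 counts of the scaled library (CPM). The levels of cell type markers in this paragraph are the exception, as CPM of the library total before scaling. Differences are log2 fold changes with their standard error (SE) from edgeR's quasi-likelihood fit of all 6 groups, called at a Benjamini-Hochberg adjusted p under 0.05 over all genes tested. The fibroblast markers COL1A1 and VIM reached at least 709.8 and 3588 CPM in every library, while CD3E had no count and PTPRC, CDH1 and EPCAM stayed at or below 0.37, 0.20 and 1.52 CPM. Of the other epithelial markers, KRT8 reached 30.7 CPM, KRT18 83.8 CPM and KRT19 39.9 CPM, and the summed level of the 5 was 112 to 156 CPM in control DMSO and 31.0 to 34.8 CPM in senescent DMSO. The summed level of the 8 fibroblast markers was 25530 to 32470 CPM in control DMSO and 14590 to 15000 CPM in senescent DMSO. It was 32430 to 35110 CPM in control IMP1088, 32720 to 37120 in control DDD86481, 11070 to 11210 in senescent IMP1088 and 10730 to 11220 in senescent DDD86481. Among them COL3A1, DCN and LUM fell to 59.8, 6.64 and 6.47 CPM in their lowest libraries. The endothelial markers summed to 1.13 to 1.85 CPM in control DMSO and 9.07 to 9.51 CPM in senescent DMSO. From control DMSO to senescent DMSO the summed level of the 4 leukocyte markers rose from between 16.4 and 21.5 CPM to between 108 and 134 CPM. Nearly all of it was CD68, a lysosomal gene that reached 155 CPM. The part of these marker differences in the results below was not tested. In bulk libraries fewer cells of a kind and less RNA per cell cannot be told apart.

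Promoters of the 10 genes were read for 4 short motifs of factors known for stress and lysosomal genes. Each of the 10 matched RefSeq, with 15 windows of 300 bases (250 before a start and 50 after it, GRCh38.p14) among 35116 for all genes. The motifs were searched on both strands: the CLEAR-type E-box TCACGTGA bound by TFEB and TFE3 (in 0.98% of all windows), the antioxidant response element core TGACNNNGC bound by NRF2, the product of NFE2L2 (13.3%), the CARE motif TGATGNAA bound by ATF4 (3.62%) and the cyclic AMP response element TGACGTCA (1.85%). The 3 matches among the 10 genes are shown, as 150 bases upstream of the start on the gene's strand with the match in capitals: the TGACNNNGC core in MAP1LC3B and, on the other strand, in CALCOCO2, and TGACGTCA in GABARAPL1. For the TGACNNNGC core these are 2 of 15 windows, the share among all windows.
MAP1LC3B, chr16:87392186-87392335, plus strand: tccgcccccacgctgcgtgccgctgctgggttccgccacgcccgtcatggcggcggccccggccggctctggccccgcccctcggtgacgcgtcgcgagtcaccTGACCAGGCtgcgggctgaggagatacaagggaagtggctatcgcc
CALCOCO2, chr17:48830885-48831034, plus strand: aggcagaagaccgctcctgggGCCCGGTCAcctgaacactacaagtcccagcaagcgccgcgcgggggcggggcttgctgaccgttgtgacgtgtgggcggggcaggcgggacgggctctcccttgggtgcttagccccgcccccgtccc
GABARAPL1, chr12:10212727-10212876, plus strand: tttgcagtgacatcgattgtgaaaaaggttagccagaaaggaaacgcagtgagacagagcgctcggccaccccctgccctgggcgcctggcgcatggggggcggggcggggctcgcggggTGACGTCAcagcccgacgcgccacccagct
The matches begin at positions -46, -129 and -30 from the RefSeq start. SQSTM1 had no match in its 3 windows, which says only that these letters are not there. The window of its downstream start is shown because SQSTM1 had the largest differences with either inhibitor, with no letters marked.
SQSTM1, chr5:179820755-179820904, plus strand: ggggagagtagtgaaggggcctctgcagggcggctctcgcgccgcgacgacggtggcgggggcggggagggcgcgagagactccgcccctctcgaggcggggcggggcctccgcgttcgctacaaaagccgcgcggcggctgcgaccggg

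SQSTM1 had the widest range of the 10 genes. Its product gathers ubiquitin-marked protein into condensates and delivers them to the autophagosome. In control DMSO its level was 712, 664 and 708 CPM in replicates 1 to 3. Senescent DMSO libraries had 1341, 1194 and 1394 CPM, all above control DMSO. The control cells given IMP1088 had 1365, 1321 and 1214 CPM and those given DDD86481 had 1305, 1298 and 1289 CPM, values that overlap with the untreated senescent cells. With an inhibitor in senescent cells the level was 3768, 3786 and 3803 CPM for IMP1088 and 4584, 3663 and 4294 CPM for DDD86481. These 6 libraries stood above the other 12. Among the 14341 genes ranked by count, SQSTM1 moved from place 142 to 169 in control DMSO libraries to place 75 to 88 in senescent DMSO, 19 to 23 in senescent IMP1088 and 15 to 22 in senescent DDD86481, where it took 0.349% to 0.424% of all counts.

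**Figure D1:**
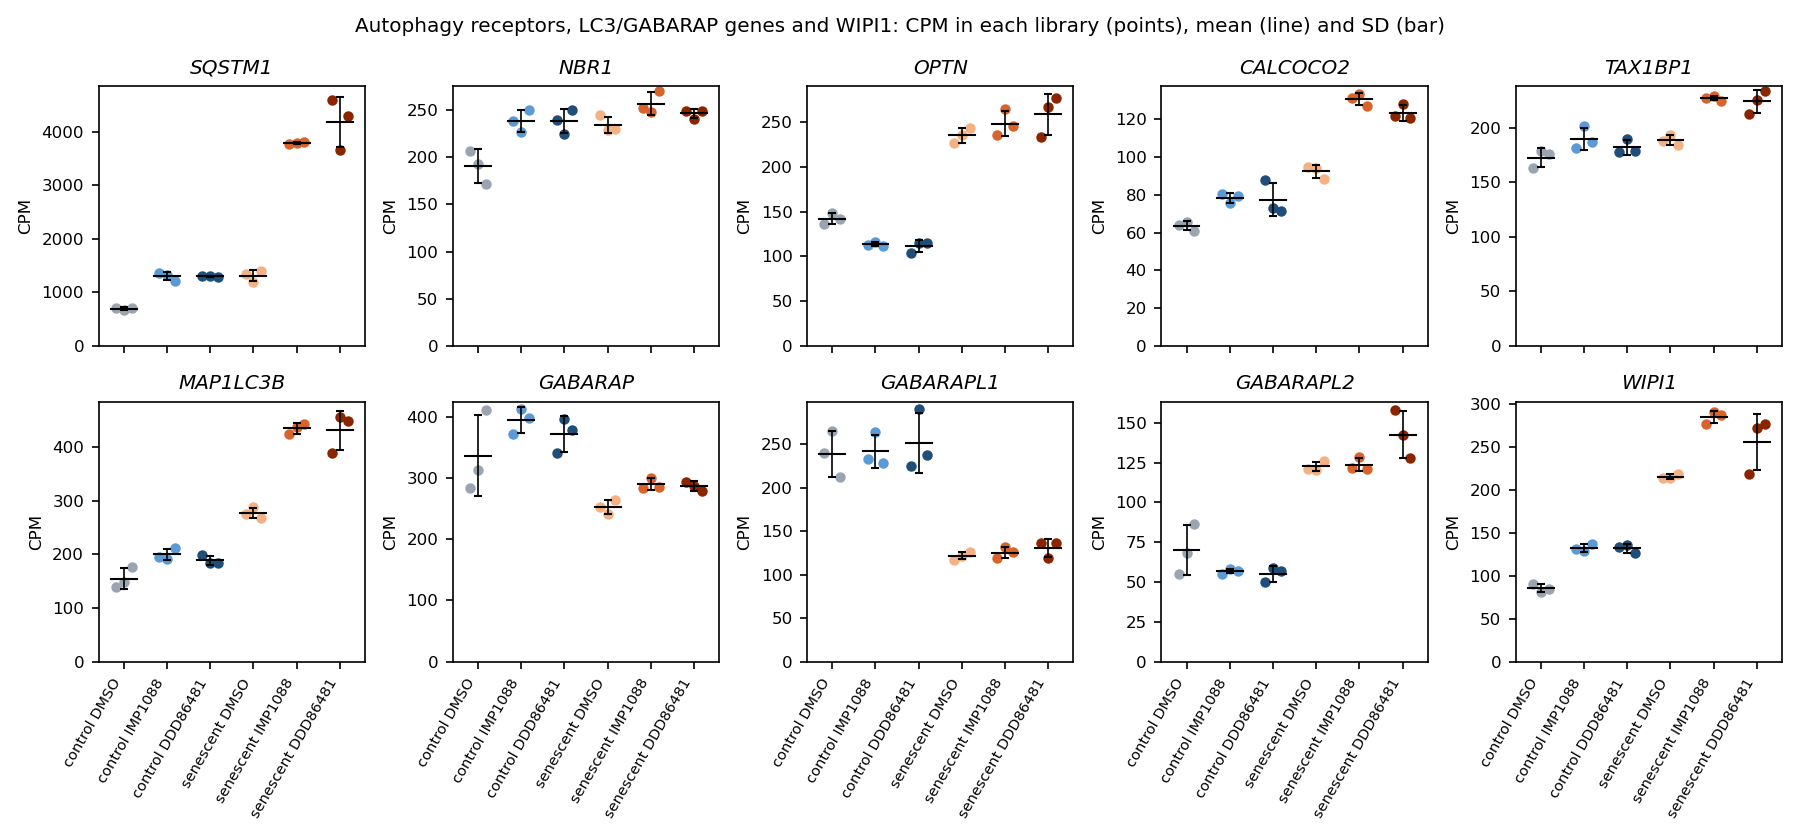
Level in CPM (vertical axis, from 0, one scale per gene) of each of the 10 genes in every library, with points for libraries, a line for the mean and a bar for the SD of 3 libraries in each of the 6 groups on the horizontal axis. SQSTM1 is highest in the 6 senescent libraries with an inhibitor (3663 to 4584 CPM), GABARAPL1 is higher in all control than in all senescent libraries, and GABARAP spreads most in control DMSO (285 to 411 CPM).

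Senescence without inhibitor was the first comparison. Of the 10 genes 7 were higher and 2 lower in senescent DMSO than in control DMSO, where 32.5% of all genes tested were called higher and 36% lower. The median log2 fold change of the 10 genes was 0.63, against -0.05 over all genes.

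Among the receptors, SQSTM1 rose by 0.92 on the log2 scale (SE 0.09, 1.89-fold, adjusted p = 2.79e-08). OPTN, a receptor that also binds ubiquitin on damaged mitochondria and is phosphorylated by TBK1, had 136, 148 and 142 CPM in control DMSO and 227, 236 and 243 CPM in senescent DMSO. The groups did not overlap, and the difference was 0.73 (SE 0.08, adjusted p = 1.37e-07). CALCOCO2, which recognises bacteria and mitochondria, rose from 64.2, 65.8 and 61.0 CPM to 94.9, 94.1 and 88.6 CPM, a difference of 0.54 (SE 0.08, adjusted p = 9.39e-06). NBR1, which binds ubiquitin and co-assembles with p62, rose by 0.30 (SE 0.08, adjusted p = 0.00314). That call was lost with upper quartile scaling (0.15, adjusted p = 0.104), a scaling that moved the median of all genes by -0.155. TAX1BP1, a relative of CALCOCO2, lay between 163 and 179 CPM in control DMSO and between 184 and 193 CPM in senescent DMSO, a difference of 0.13 (SE 0.07, adjusted p = 0.138), which became -0.03 with upper quartile scaling and was called with DESeq2 (0.16, adjusted p = 0.0274).

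The 4 ubiquitin-like genes went in both directions. MAP1LC3B, which encodes the LC3 protein most used as an autophagosome marker, had 138, 148 and 177 CPM in control DMSO and 276, 288 and 269 CPM in senescent DMSO, an increase of 0.85 (SE 0.09, adjusted p = 8.71e-08). GABARAPL2 (GATE-16) had 55.3, 68.5 and 86.6 CPM against 121, 120 and 126 CPM, an increase of 0.81 (SE 0.12, adjusted p = 5.55e-06). The control libraries of both genes were below all senescent ones. GABARAPL1 was the reverse: its 240, 265 and 212 CPM in control DMSO compare with 117, 122 and 126 CPM in senescent DMSO, a fall of 0.98 (log2 fold change -0.98, SE 0.10, adjusted p = 6.25e-08). Replicates of GABARAP in control DMSO had 285, 314 and 411 CPM, and those of senescent DMSO had 253, 241 and 264 CPM with no overlap and a log2 fold change of -0.41 (SE 0.11, adjusted p = 0.00184). Control DMSO replicate 3 stood above the other two, and without it the difference was -0.24, still called.

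WIPI1 had the largest log2 fold change of the 10 genes in this comparison. It rose from 90.5, 81.4 and 84.1 CPM to 214, 214 and 219 CPM, by 1.34 (SE 0.09, 2.53-fold, adjusted p = 3.36e-11). Exons of WIPI1 share 24.4% of their bases with ARSG, a sulfatase gene on the opposite strand whose own count rose by 3.10 on the log2 scale and lay between 89 and 675 in all libraries, against 1691 to 5261 for WIPI1. The library kit named in the methods marks strand, which lets reads of the 2 genes be told apart over those bases if the counting used it, and the setting of the counting is not given in the sources used here.

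**Figure D2:**
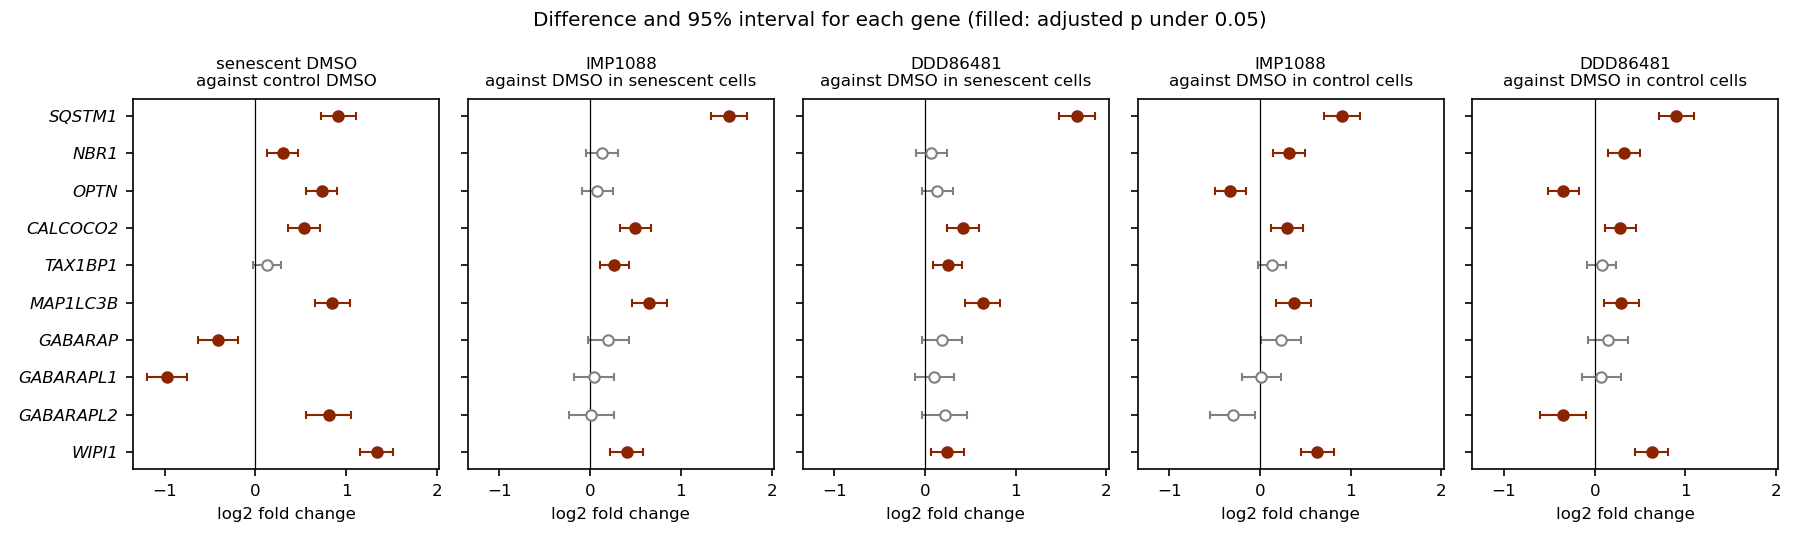
Log2 fold change of each gene (points) with its 95% interval (bars) in the 5 comparisons named above the panels, with filled points for an adjusted p under 0.05 and open points otherwise. WIPI1 has the largest difference with senescence (1.34), SQSTM1 has the largest with either inhibitor, and GABARAPL1 is lower with senescence alone (-0.98).

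Levels between genes were compared per kilobase of the MANE Select transcript, the transcript of each gene that RefSeq and Ensembl share. In control DMSO, GABARAP (255 CPM per kb) and SQSTM1 (245 CPM per kb) led and CALCOCO2 was lowest (17.5 CPM per kb). Of the exonic bases of GABARAP, 35.4% are shared with a gene without a symbol on the same strand, which has no row of its own in the count table. Strand cannot separate reads over those bases, and their part in the level of GABARAP was not tested. In senescent DMSO, SQSTM1 (461 CPM per kb) stood above GABARAP (192 CPM per kb), and in senescent IMP1088 and senescent DDD86481 it reached 1333 and 1472 CPM per kb. With all exons of a gene counted as its length, GABARAP led in all 3 control groups. The order of these genes in control cells therefore turned with the length used, while SQSTM1 led in the 3 senescent groups with either length.

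The summed level of MAP1LC3B, GABARAP, GABARAPL1 and GABARAPL2 was 526 ± 66.0 CPM per kb in control DMSO and 511 ± 8.59 CPM per kb in senescent DMSO (SD, n = 3 each), with overlapping libraries. Its make-up was not alike. MAP1LC3B took 13.3% to 13.9% of the sum in control DMSO, 24.0% to 26.5% in senescent DMSO, 32.2% to 33.6% in senescent IMP1088 and 28.4% to 33.5% in senescent DDD86481. The sum was 616 ± 16.5 CPM per kb in senescent IMP1088 and 634 ± 8.24 CPM per kb in senescent DDD86481, above all senescent DMSO libraries, which reached 521 CPM per kb. No test was made on the sum or on the shares.

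**Figure D3:**
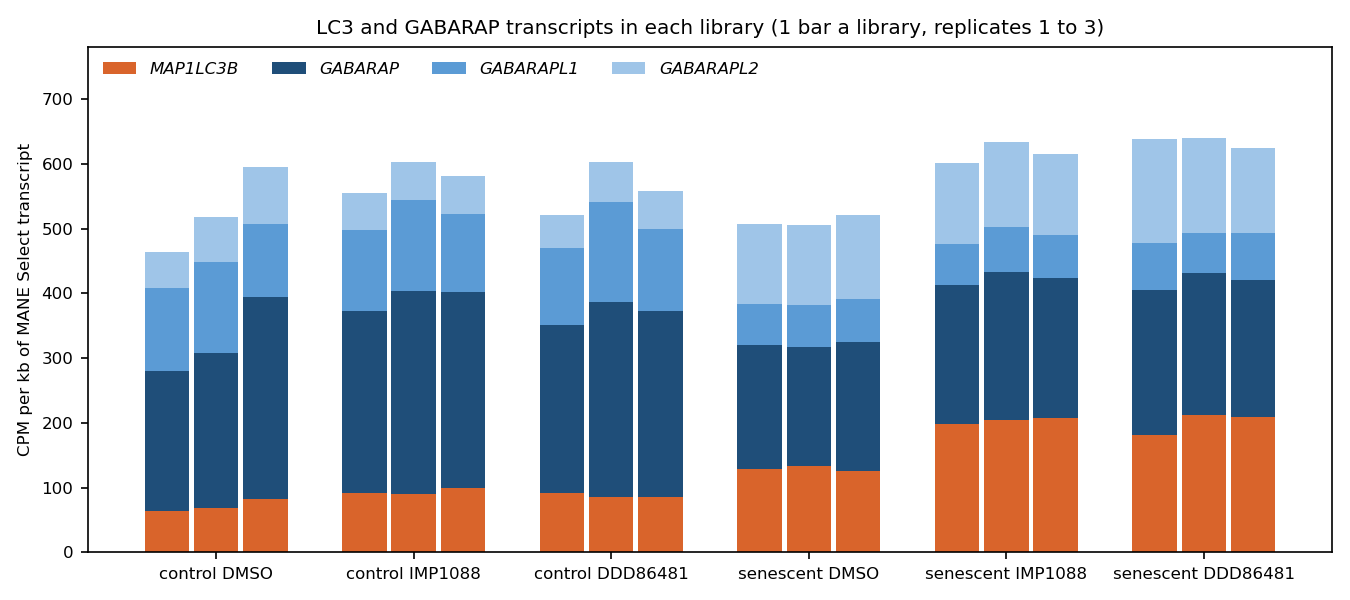
CPM per kb of MANE Select transcript (vertical axis) of MAP1LC3B, GABARAP, GABARAPL1 and GABARAPL2, stacked, with 1 bar for each of the 18 libraries in their 6 groups. The MAP1LC3B part grows from 13.3% to 13.9% of the bar in control DMSO to 32.2% to 33.6% in senescent IMP1088.

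N-myristoyltransferase inhibition in senescent cells was the second question. The 2 inhibitor groups were each compared with the same senescent DMSO libraries, so their differences share that side. With IMP1088, 5 of the 10 genes were higher and none lower, where 20.6% of all genes were called higher and 23.9% lower. With DDD86481, 5 were higher and none lower, where 20.1% were called higher and 23.1% lower. The medians of the 10 genes were 0.23 and 0.23, against -0.04 and -0.04 over all genes.

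SQSTM1 was higher by 1.53 with IMP1088 (SE 0.09, 2.89-fold, adjusted p = 2.93e-10) and by 1.67 with DDD86481 (SE 0.09, 3.19-fold, adjusted p = 1.05e-10). MRNIP, a DNA repair gene on the opposite strand, covers 21% of its exonic bases but had at most 235 counts in a library, against at least 14228 for SQSTM1. MRNIP went the other way, with log2 fold changes of -0.61 and -0.64 (adjusted p = 0.00164 and 0.00125).

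MAP1LC3B had 424, 438 and 444 CPM with IMP1088 and 389, 456 and 449 CPM with DDD86481, all above the untreated senescent libraries. The differences were 0.65 (SE 0.09, adjusted p = 9.88e-06) and 0.64 (SE 0.09, adjusted p = 1.36e-05). The near copy MAP1LC3B2 had 4 to 31 counts in a library and MAP1LC3B 3295 to 8728, and how the counting treated reads that match both is not stated. CALCOCO2 had 131, 134 and 127 CPM with IMP1088 and 122, 128 and 121 CPM with DDD86481, again above senescent DMSO, by 0.50 (SE 0.08, adjusted p = 6.18e-05) and 0.42 (SE 0.08, adjusted p = 0.000404).

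TAX1BP1 reached 225 to 229 CPM with IMP1088 and 213 to 234 CPM with DDD86481. It was higher by 0.27 (SE 0.07, adjusted p = 0.00631) and 0.25 (SE 0.07, adjusted p = 0.0107). The latter call was lost without the filter on low counts (0.24, adjusted p = 0.0732).

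WIPI1 had 277, 291 and 288 CPM with IMP1088, all above senescent DMSO, and rose by 0.40 (SE 0.09, adjusted p = 0.000771). With DDD86481 it had 219, 272 and 277 CPM, and replicate 1 lay at the level of senescent DMSO. The difference of 0.25 (SE 0.09, adjusted p = 0.026) was no longer called without DDD86481 replicate 2 (0.20, adjusted p = 0.107) or replicate 3 (0.19, adjusted p = 0.125), without senescent DMSO replicate 1 (0.24, adjusted p = 0.0682) or replicate 2 (0.24, adjusted p = 0.067), or without the filter (0.24, adjusted p = 0.0827). ARSG had log2 fold changes of -0.52 and -0.51 in these comparisons.

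NBR1, OPTN, GABARAP, GABARAPL1 and GABARAPL2 did not pass in senescent cells with either inhibitor. Their log2 fold changes lay between 0.01 and 0.20 with IMP1088 and between 0.07 and 0.22 with DDD86481. For GABARAPL1 the 95% interval was -0.17 to 0.26 with IMP1088 and -0.11 to 0.32 with DDD86481, and its 6 treated libraries, at 119 to 137 CPM, overlapped with senescent DMSO. With the compared groups alone, NBR1 (0.16, adjusted p = 0.0296) and GABARAP (0.23, adjusted p = 0.00249) were called with IMP1088 and GABARAPL2 (0.25, adjusted p = 0.044) with DDD86481.

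The same inhibitors in control cells were the third question. Both groups were compared with the control DMSO libraries, which also served as the reference for senescence. With IMP1088, 5 of the 10 genes were higher and 1 lower, where 16.3% of all genes were called higher and 17.4% lower. With DDD86481, 5 were higher and 2 lower, where 17.8% were called higher and 18.7% lower. The medians were 0.27 and 0.21, against 0.00 over all genes in both.

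SQSTM1 was higher by 0.90 with IMP1088 (SE 0.09, 1.87-fold, adjusted p = 4.49e-07) and by 0.90 with DDD86481 (SE 0.09, adjusted p = 5.08e-07). WIPI1 rose to 131, 129 and 137 CPM with IMP1088 and to 134, 136 and 126 CPM with DDD86481, clear of control DMSO. Its differences were 0.63 in both (SE 0.09 each, adjusted p = 1.56e-05 and 1.7e-05).

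NBR1 was higher by 0.32 in both (SE 0.08 each, adjusted p = 0.00519 and 0.00489), and all 6 treated libraries, at 225 to 251 CPM, were above the 171 to 207 CPM of control DMSO. CALCOCO2 was higher by 0.30 with IMP1088 (adjusted p = 0.00907) and by 0.28 with DDD86481 (adjusted p = 0.0121). The latter was lost without control DDD86481 replicate 1, the highest of its group at 87.7 CPM (0.19, adjusted p = 0.0936). MAP1LC3B had 195, 192 and 212 CPM with IMP1088 and 198, 185 and 184 CPM with DDD86481, above control DMSO in each case. Its differences were 0.37 (adjusted p = 0.00402) and 0.29 (adjusted p = 0.0181), and the latter was lost without control DDD86481 replicate 1 (0.27, adjusted p = 0.061), control DMSO replicate 1 (0.22, adjusted p = 0.0716) or control DMSO replicate 2 (0.27, adjusted p = 0.0554), and with upper quartile scaling (0.23, adjusted p = 0.0654).

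OPTN fell. It had 112, 116 and 112 CPM with IMP1088 and 104, 115 and 115 CPM with DDD86481, all below control DMSO. Its log2 fold changes were -0.32 (SE 0.08, adjusted p = 0.0049) and -0.35 (SE 0.08, adjusted p = 0.00288). GABARAPL2 had 55.2, 58.2 and 57.1 CPM with IMP1088 (-0.30, adjusted p = 0.0591) and 49.7, 58.99 and 56.7 CPM with DDD86481 (-0.35, SE 0.12, adjusted p = 0.0298). Both groups overlapped with control DMSO. Without control DMSO replicate 1 the difference with IMP1088 was called (-0.45, adjusted p = 0.00232). The call with DDD86481 was lost without control DMSO replicate 3 (-0.17, adjusted p = 0.228) or replicate 2 (-0.35, adjusted p = 0.0557), or without control DDD86481 replicate 1 (-0.27, adjusted p = 0.143) or replicate 3 (-0.36, adjusted p = 0.0603).

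TAX1BP1, GABARAP and GABARAPL1 did not pass with either inhibitor in control cells. GABARAP had 372, 414 and 399 CPM with IMP1088 (0.23, adjusted p = 0.0989) and 341, 397 and 379 CPM with DDD86481 (0.15, adjusted p = 0.294). Without control DMSO replicate 3 these became 0.40 (adjusted p = 0.000939) and 0.32 (adjusted p = 0.00679). Calls in control cells also depended on which libraries shared the fit: with the compared groups alone, 3 of the 10 genes were called with each inhibitor, and NBR1, CALCOCO2 and MAP1LC3B were not. Calls over all genes fell as well, from 4829 to 2716 with IMP1088 and from 5242 to 2842 with DDD86481.

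Whether an inhibitor acted differently in senescent and control cells was tested as an interaction, taken as the log2 fold change of senescent cells less the one of control cells. For IMP1088 it was called for 2 of the 10 genes, where 26.2% of all genes were called, and for DDD86481 for 4 of the 10, where 30.3% were called. For IMP1088 that is a smaller share than among all genes. The 2 interactions share the DMSO libraries.

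SQSTM1 had the largest interactions of the 10 genes, 0.63 with IMP1088 (SE 0.13, adjusted p = 0.00167) and 0.77 with DDD86481 (SE 0.13, adjusted p = 0.000259). OPTN had 0.40 (SE 0.12, adjusted p = 0.0156) and 0.48 (SE 0.12, adjusted p = 0.00459), being lower with inhibitor in control cells and near its untreated level in senescent cells. The OPTN call for IMP1088 was lost without senescent IMP1088 replicate 2 (0.36, adjusted p = 0.0504). GABARAPL2 had 0.31 with IMP1088 (adjusted p = 0.175) and 0.57 with DDD86481 (SE 0.17, adjusted p = 0.0168), and the IMP1088 value was called without control DMSO replicate 1 (0.46, adjusted p = 0.016).

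WIPI1 had negative interactions, -0.23 with IMP1088 (adjusted p = 0.171) and -0.38 with DDD86481 (SE 0.12, adjusted p = 0.0241). The DDD86481 call was lost without control DDD86481 replicate 1 (adjusted p = 0.0664) or replicate 2 (adjusted p = 0.0826), control DMSO replicate 2 (adjusted p = 0.0861) or senescent DDD86481 replicate 1 (adjusted p = 0.0577), over which the value lay between -0.34 and -0.28. It was also lost with the compared groups alone (-0.34, adjusted p = 0.102) and without the filter (-0.39, adjusted p = 0.0501). MAP1LC3B had 0.28 (adjusted p = 0.121) and 0.34 (adjusted p = 0.0509), and the latter was called in other fits, such as DESeq2 (0.34, adjusted p = 0.0259), and without replicate 1 of control DDD86481, control DMSO or senescent DDD86481 or replicate 2 of control DMSO (0.41 to 0.42). Without control DMSO replicate 1, MAP1LC3B with IMP1088 (0.35, adjusted p = 0.038) and NBR1 with DDD86481 (-0.31, adjusted p = 0.0396) were called too.

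**Figure D4:**
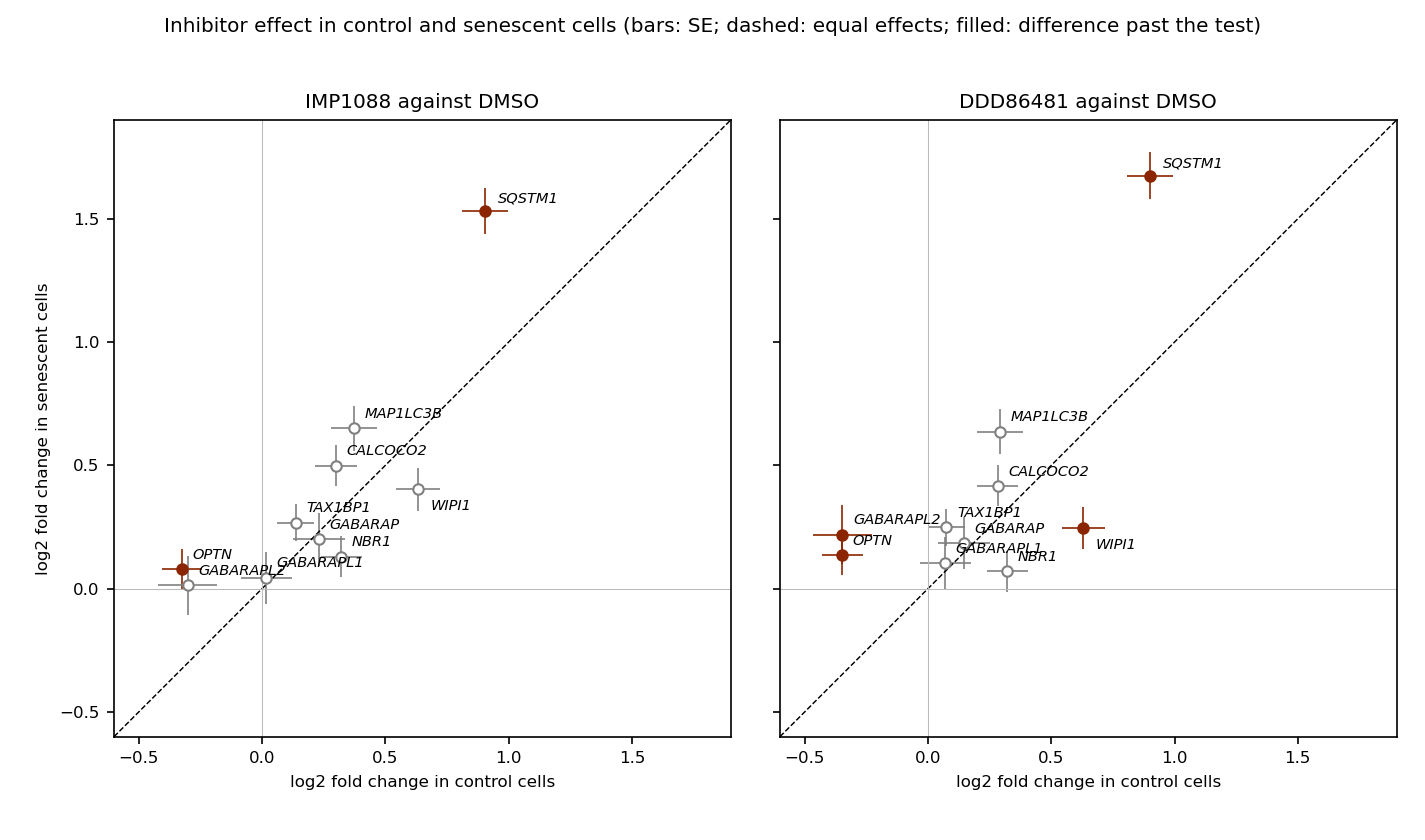
Log2 fold change with inhibitor in control cells (horizontal) and in senescent cells (vertical) for each of the 10 genes, with IMP1088 on the left and DDD86481 on the right, SE as bars and a dashed line of equal effects. Filled genes passed the test of the difference: SQSTM1 and OPTN lie above the line in both panels, and GABARAPL2 (above) and WIPI1 (below) are filled with DDD86481.

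IMP1088 and DDD86481 were given at different doses, 300 nM and 1.5 µM, so a difference between the groups would be one between these treatments. Of the 10 genes 0 were called between them in senescent cells and 0 in control cells, where 0% and 0% of all genes were called by edgeR. DESeq2 also called 0 genes in each. At an unadjusted p under 0.05 edgeR had 570 genes in senescent and 141 in control cells. For SQSTM1 the log2 difference of IMP1088 from DDD86481 was -0.14 in senescent cells (95% interval -0.34 to 0.05) and 0.00 in control cells (-0.19 to 0.20). For WIPI1 it was 0.16 in senescent cells (-0.02 to 0.34), and for GABARAPL2 -0.21 (-0.45 to 0.04). Over the 10 genes the intervals reached from -0.45 to 0.34 in senescent cells and from -0.27 to 0.31 in control cells, so differences within those limits are not excluded.

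The order of the 6 group means differed between the genes. For SQSTM1 it ran from senescent DDD86481 and senescent IMP1088, which overlapped, then senescent DMSO, control IMP1088 and control DDD86481, whose ranges overlapped, to control DMSO. For MAP1LC3B and CALCOCO2 the 2 senescent inhibitor groups, senescent DMSO, the 2 control inhibitor groups and control DMSO formed 4 steps with no overlap between steps. WIPI1 had the 3 senescent groups first, with the lowest senescent DDD86481 library within reach of senescent DMSO, and then the control inhibitor groups above control DMSO. OPTN had the 3 overlapping senescent groups first, then control DMSO, then the control inhibitor groups. GABARAPL1 had the 3 control groups above the 3 senescent ones, each set overlapping within itself.

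For the 7 genes whose group means spanned more than 1 on the log2 CPM scale, the 3 genes with the most similar profile were listed by the root mean square difference of the 6 centred group means. SQSTM1 spanned 2.58, and ALKBH5 (0.11), INKA2-AS1 (0.12) and RRP12 (0.12) were nearest to it. ALKBH5, an RNA demethylase, rose from 77.5 ± 4.73 CPM in control DMSO to 148 ± 8.01 CPM in control IMP1088 (SD, n = 3). For WIPI1 the nearest were NAA80 (0.03), HEATR5A (0.06) and CRELD1 (0.06), and for MAP1LC3B they were RINT1, JMJD6 and HCG20 (0.05 to 0.06). OPTN was matched by ADRM1, TRABD and PPA2, CALCOCO2 by UBE2J1, ARFIP2 and NOP14, GABARAPL1 by RAPGEFL1, MATR3 and TSC22D2, and GABARAPL2 by RNF14, CCDC71L and PLA2G15, at 0.02 to 0.05. Among these matches some had low counts: group means reached from 0.24 to 0.77 CPM for HCG20, from 0.97 to 5.72 CPM for INKA2-AS1 and from 1.73 to 3.76 CPM for RAPGEFL1. All matches are descriptions over 6 groups of the same libraries.

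TFEB, TFE3 and NFE2L2, named with the motifs, were among 71 other autophagy genes, of which 68 were tested (ATG9B, MAP1LC3C and RETREG1 had at most 11, 4 and 4 counts in a library). With senescence 29 of the 68 were higher and 8 lower. With IMP1088 the numbers were 21 and 6 in senescent cells and 20 and 5 in control cells, and with DDD86481 they were 21 and 6 in senescent cells and 22 and 6 in control cells. The background shares given above apply to these counts. With the compared groups alone, the calls in control cells fell from 25 to 14 with IMP1088 and from 28 to 11 with DDD86481. Over all genes they fell from 4829 to 2716 and from 5242 to 2842.

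TFEB, a master activator of lysosomal and autophagy genes, was lower with senescence (-0.54, SE 0.24, adjusted p = 0.0487) and in control cells with IMP1088 (-0.79, adjusted p = 0.014) and DDD86481 (-0.78, adjusted p = 0.0145). NFE2L2, which encodes NRF2, was lower with senescence (-1.02, SE 0.09, adjusted p = 5.17e-09) and higher with IMP1088 in senescent cells (0.25, adjusted p = 0.0318). FNIP1 and FNIP2, partners of folliculin in amino acid sensing, rose in senescent cells by 0.76 and 0.93 with IMP1088 and by 0.98 and 1.21 with DDD86481. FNIP1 also rose in control cells, by 0.82 with IMP1088 and 0.88 with DDD86481 (adjusted p = 0.000211 and 0.000109). FOXO1 rose with senescence by 1.56 (SE 0.37, adjusted p = 0.00103), at low mean levels of 0.36 CPM in control DMSO and 1.07 CPM in senescent DMSO. TFE3, given beside TFEB after its values were seen, rose with senescence by 0.48 (adjusted p = 3.44e-05) and was lower in senescent cells with IMP1088 (-0.35, adjusted p = 0.00181) and DDD86481 (-0.33, adjusted p = 0.00304) and in control cells (-0.36, adjusted p = 0.00269, and -0.27, adjusted p = 0.0162).

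In the ULK1 kinase complex, which starts autophagosome formation, 4 of 5 genes rose with senescence and none fell, where 32.5% of all genes rose and 36% fell. ATG13 rose by 0.66 with IMP1088 and 0.60 with DDD86481 in senescent cells and by 0.56 and 0.59 in control cells, and ATG101 by 0.78 and 0.97 in senescent cells. ULK2 was lower in senescent cells with both (-0.48, adjusted p = 0.00678, and -0.58, adjusted p = 0.00186). In the lipid kinase complex of PIK3C3 and BECN1, 2 of 8 were higher with senescence, UVRAG (0.68) and RUBCN (0.49), a smaller share than the 32.5% of all genes, and PIK3C3 rose with the inhibitors in senescent cells (0.61 and 0.61). RUBCN, an inhibitor of autophagosome maturation, fell with IMP1088 in senescent cells (-0.41, adjusted p = 0.0477).

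Among the lipid transfer proteins and the other WIPI genes, 6 of 8 rose with senescence (32.5% of all genes), 6 with IMP1088 (20.6%) and 3 with DDD86481 (20.1%) in senescent cells, and none fell in these comparisons. TMEM41B, a lipid scramblase, rose by 1.07 with senescence and by 0.77 and 0.65 with IMP1088 and DDD86481 in senescent cells. It also rose in control cells, by 0.63 and 0.68. ATG2A, which carries lipid to the growing membrane, rose by 0.55, 0.52 and 0.63. It was also higher in control cells, at 42.0 to 45.5 CPM with IMP1088 and 44.1 to 48.3 CPM with DDD86481, against 26.6 to 35.7 CPM in control DMSO. In the conjugation machinery, which attaches LC3 and GABARAP proteins to lipid, 5 of 11 rose and 1 fell with senescence (32.5% and 36% of all genes), led by the protease ATG4D (1.21) and the activating enzyme ATG7 (1.00). ATG16L2 and ATG5 rose with IMP1088 in senescent cells (0.68 and 0.45) and with DDD86481 (0.76 and 0.52). ATG16L2 also rose in control cells, by 0.76 with IMP1088 and 0.80 with DDD86481.

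Of the fusion and tethering genes, 4 of 8 rose with senescence (32.5% of all genes), led by PLEKHM1 (0.97) and RAB7A (0.86). With the inhibitors in senescent cells 2 rose and 2 fell in each comparison, near the shares of all genes (20.6% and 23.9% with IMP1088, 20.1% and 23.1% with DDD86481). YKT6 rose by 0.62 with IMP1088 and 0.65 with DDD86481, while STX17, the syntaxin of autophagosomes, had log2 fold changes of -0.59 (adjusted p = 0.00126) and -0.68 (adjusted p = 0.00035). VAMP8 fell further with IMP1088 in senescent cells (-1.44, adjusted p = 0.0116). Its mean levels were low, 0.75 CPM in senescent DMSO and 0.27 CPM in senescent IMP1088. YKT6 also rose in control cells, by 0.29 with IMP1088 and 0.30 with DDD86481. Of the 15 other cargo receptors 4 rose and 3 fell with senescence, smaller shares than the 32.5% and 36% of all genes, and BNIP3, a mitophagy receptor, rose by 1.52. With IMP1088 in senescent cells 4 of the 15 rose and 1 fell (20.6% and 23.9% of all genes). With DDD86481 in senescent cells 6 rose and 1 fell (20.1% and 23.1%). CCPG1, a receptor for the endoplasmic reticulum, rose there by 0.58 with IMP1088 and 0.68 with DDD86481, and CALCOCO1 by 0.74 and 0.60. WDFY3 fell in senescent cells with IMP1088 (-0.76, adjusted p = 0.0141), the largest called change of the 15 in that comparison. In control cells CALCOCO1 rose with IMP1088 (0.46) and WDFY3 rose with DDD86481 (0.61).

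**Figure D5:**
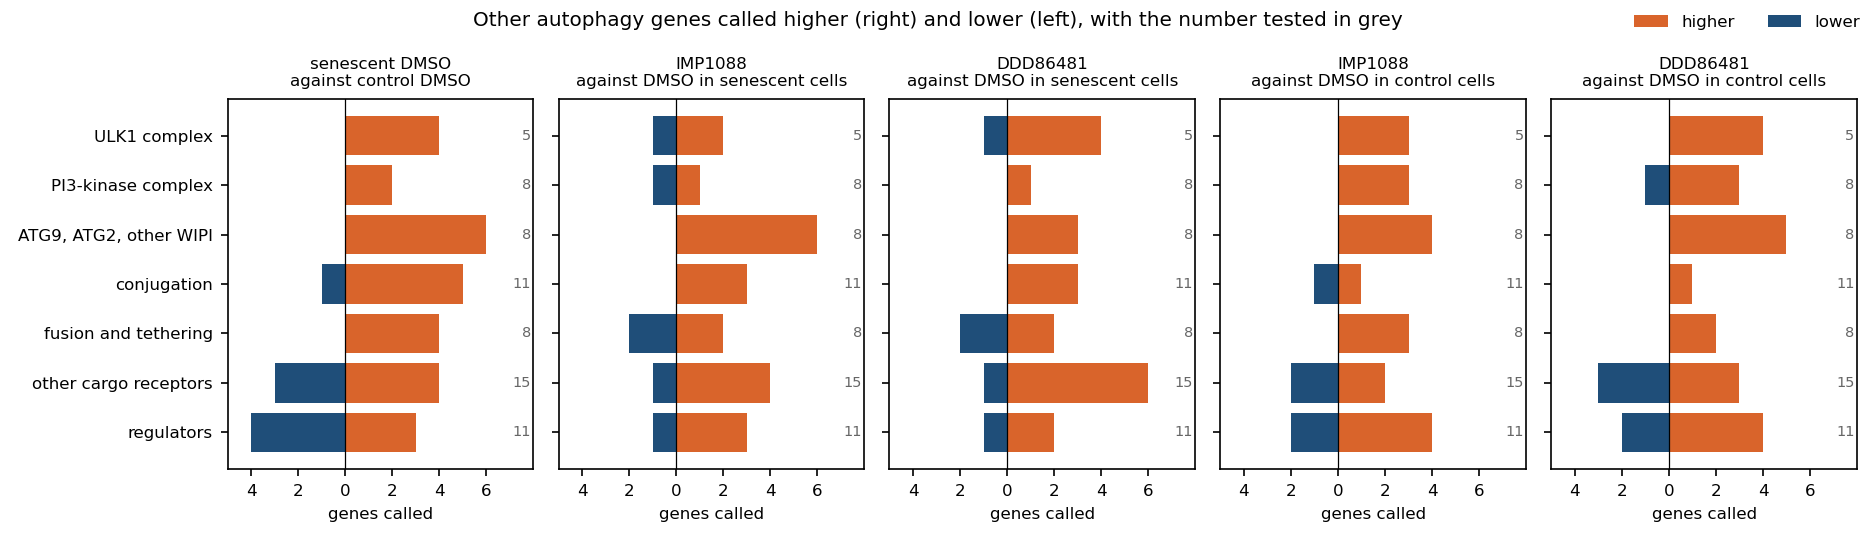
Number of other autophagy genes called higher (bars to the right) and lower (bars to the left) in each functional group, for the 5 comparisons above the panels, with the number tested in grey. The ATG9, ATG2 and other WIPI group has 6 of 8 higher with senescence and with IMP1088 in senescent cells and 3 of 8 with DDD86481, and the fusion group has 2 higher and 2 lower with each inhibitor in senescent cells.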

How the data were processed

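RNA-seq of polyA RNA was analysed from 18 libraries. The deposited table holds raw counts of reads per gene made by the authors, without normalization. The submitters' processing notes name DRAGEN, STAR 2.7.8a, DESeq2 1.32.0 and hg38, whereas the methods of the study name TopHat and HTSeq on hg19. The methods also name a directional library kit and first-strand alignment. Which pipeline made the counts, and whether the counting used strand, are not given in the sources used here. Reads shared by near-identical genes or overlapping exons may thus be split or lost.

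Libraries were grouped by their titles. Genes with low counts were removed by edgeR's filter, libraries were scaled by TMM (factors 0.8917 to 1.106), and all 6 groups were fitted together with the quasi-likelihood test of edgeR 4.0.16 (R 4.3.3), with Benjamini-Hochberg adjustment over 14341 genes. The study names DESeq2 without a design for these cells. SE and 95% intervals come from that fit. Alternatives were DESeq2 1.42.0, its size factors, upper quartile scaling, no filter, only the groups compared, the replicate number as a block, and leaving out each library. The fit was tested on simulated data made from these libraries: for IMP1088 in senescent cells (14005 genes run) 2-fold changes were found for 99 of 100 altered genes and 1.5-fold ones for 61 of 100, and 11 of 13805 unaltered genes were called wrongly. The IMP1088 interaction gave 86, 22 and 5. In the simulation all 6 groups had the same mean and spread for a gene, apart from the altered genes in senescent IMP1088. In the data 20.6% of genes were called higher and 23.9% lower in that comparison, and control DMSO was less even than the other groups. The rates found in the simulation may therefore not hold for the data.

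Replicate numbers come from the titles. Deviations from the group means of same-numbered libraries correlated over 0.1 in every pair for IMP1088 against DMSO in control cells (0.394, 0.123 and 0.231) and for IMP1088 against DDD86481 in senescent (0.117, 0.126 and 0.119) and control cells (0.101, 0.270 and 0.129). On that ground alone these comparisons may be paired. The main fit held no replicate term, so their SE, p-values and intervals are unpaired. The replicate number as a block was run only as an alternative. Other comparisons had at least 1 pair under 0.1. No 2 replicates agreed within sampling noise (chi-square per gene at least 5.09). Control DMSO was the least even group, with 16.4 for replicates 1 and 2, 51.2 for 2 and 3 and 101 for 1 and 3. The highest value of the other groups was 26.8, in senescent DDD86481. Control DMSO is the reference for senescence, for the inhibitors in control cells and in the interactions, while the fit shares 1 estimate of the spread between groups.

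The 10 genes, the autophagy list, markers and motifs were chosen with earlier results of these data known. Named list genes were taken from the up to 2 with the largest change per functional group and comparison among those called, plus any gene of a group of 5 or fewer. Not every gene that this rule named is given: STBD1, AMBRA1 and ATG2B are among those left out. STX17, CCPG1, CALCOCO1, ATG2A, TFEB and NFE2L2 are also given in comparisons where the rule did not name them, chosen after their values were seen. Transcript lengths and overlaps came from GENCODE 44 on GRCh37.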

Additional observations from a re-analysis of the deposited data

Results flagged for a closer look

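For 4 of the 10 genes the effect of an inhibitor differed between senescent and control cells by the interaction test of edgeR (the log2 fold change of senescent cells less the one of control cells), 2 with IMP1088 and 4 with DDD86481, where 26.2% and 30.3% of all genes were called. SQSTM1 had 0.63 with IMP1088 and 0.77 with DDD86481, since its increase of 0.90 in control cells compares with 1.53 and 1.67 in senescent cells. OPTN had 0.40 with IMP1088 and 0.48 with DDD86481. GABARAPL2 had 0.57 with DDD86481, with 3 libraries of control DMSO that ranged from 55.3 to 86.6 CPM. WIPI1 had -0.38 with DDD86481, and senescent DDD86481 replicate 1 lay at 219 CPM while the other libraries of that group lay at 272 and 277 CPM. Groups of 3 libraries were too small to test for outlying libraries.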

How the results depend on the processing

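SQSTM1 kept its direction and its call in the 5 comparisons with DMSO and in both interactions under all alternatives run. With the compared groups alone, the genes called among the 10 fell from 6 to 3 with IMP1088 and from 7 to 3 with DDD86481 in control cells, and the other autophagy genes called from 25 to 14 and from 28 to 11. Calls over all genes in control cells also fell with that fit, from 4829 to 2716 and from 5242 to 2842. In senescent cells the same fit called 7 rather than 5 of the 10 with IMP1088 and 6 rather than 5 with DDD86481, and over all genes with IMP1088 the calls rose from 6374 to 7841 (the cause was not tested). Without the filter, 3 of the 10 rather than 5 were called with DDD86481 in senescent cells (the cause was not tested). Leaving out single libraries gave 4 to 7 of the 10 genes with DDD86481 in control cells, 1 to 4 for the IMP1088 interaction (4 without control DMSO replicate 1, 1 without senescent IMP1088 replicate 2), and 16 to 31 of the other autophagy genes with DDD86481 in control cells (16 without control DDD86481 replicate 1, 18 without control DMSO replicate 3).

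Signs turned only for values that were not called. With upper quartile scaling TAX1BP1 became -0.029 with senescence, GABARAPL1 -0.033 with IMP1088 in control cells and GABARAP 0.024 in the IMP1088 interaction, which was 0.0020 with the compared groups alone. SQSTM1 between the inhibitors in control cells became -0.00041 without the filter and lay between -0.031 and 0.059 without single libraries. Leaving out single libraries, GABARAP lay between -0.20 and 0.076 (IMP1088) and between -0.13 and 0.15 (DDD86481) in the interactions. GABARAPL1 lay between -0.061 and 0.11 (IMP1088) and between -0.047 and 0.16 (DDD86481) in control cells, and between -0.024 and 0.13 (IMP1088) and between -0.011 and 0.19 (DDD86481) in the interactions. GABARAPL2 with IMP1088 in senescent cells lay between -0.015 and 0.034.

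With the replicate block the MAP1LC3B interaction with DDD86481 was called (0.34, adjusted p = 0.0486). No other call among the 10 genes changed with the block.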
